A study of Mus musculus with 2 samples.

Results

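Klrg1 and 8 other killer-lectin-like receptors were followed across the T cells of the mouse spleen in a single-cell RNA sequencing study of the arginine methyltransferase PRMT5. The 9 genes, Klrg1, Klrk1, Klrd1, Klrc1, Klrc2, Klre1, Klrb1c, Klra1 and Klra8, were taken by symbol from the 30905 genes of the deposited tables, and all 9 were found. CD3+ T cells had been sorted from the spleens of Prmt5 CKO mice and of control mice, all C57BL/6. Prmt5 CKO mice carry floxed Prmt5 alleles and a Cre transgene under the CD4 promoter, which acts in thymocytes that pass through a CD4-expressing stage and hence in CD4 and CD8 T cells alike. The labels give the genotype with Cre and floxed Prmt5 for both samples and name the control only in its title, so whether the control mice carried either allele cannot be told from them. Age and sex are not given. Each group was 3 mice in 1 library with no map from cells to mice, which makes 1 sample per group. No test across replicates exists, and effects of genotype cannot be told apart from those of library preparation.

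Killer-lectin-like receptors are C-type-lectin-like membrane proteins that natural killer (NK) cells and subsets of T cells use to sense other cells. KLRG1 binds cadherins and inhibits, and it marks terminally differentiated effector CD8 T cells and a subset of activated regulatory T cells (Treg). NKG2D, encoded by Klrk1, activates through the adaptors DAP10 and DAP12 on binding stress-induced ligands. CD94, encoded by Klrd1, pairs with NKG2A (Klrc1, inhibitory) or NKG2C (Klrc2, activating) to read the nonclassical class I molecule Qa-1. Klrb1c encodes NK1.1, and the Ly49 receptors, Klra1 and Klra8 among them, bind class I molecules and are expressed by only some cells of a population.

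The 9 genes lie on chromosome 6 of mm10. Klrg1 is at chr6:122270596-122282882, on the minus strand. The other 8 lie within 1.61 Mb between positions 128778485 and 130386874, 6.5 Mb away from Klrg1. In the last 500 bases of its transcripts, from which the 3′ chemistry reads, Klrc1 shared 43.5% of its 50-base words with other genes, namely Klrc2 and Klrc3, and Klrc2 shared 20.5%. The figure was 17.8% for Klrb1c, 13.1% for Klra8 and 5.76% for Klra1, and 0 for Klrg1, Klrk1, Klrd1 and Klre1. Counts of the 5 genes that share words are therefore uncertain in how they divide between paralogs.

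Promoter sequences, from RefSeq for GRCm38.p6, covered 250 bases before and 50 after the start of 7 of the 9 genes. They are shown for Klrk1, Klrc1, Klrc2, Klre1 and Klrb1c, because the level of Klrk1 across T cell classes had a correlation above 0.8 with each of the other 4. Capitals mark the Runx letters TGTGGT or ACCACA and the T-box letters TCACAC or GTGTGA, on either strand. The intervals are chr6:129623815-129624114 (minus strand) for Klrk1, chr6:129678924-129679223 (minus) for Klrc1, chr6:129660547-129660846 (minus) for Klrc2, chr6:129577963-129578262 (plus) for Klre1 and chr6:128788592-128788891 (minus) for Klrb1c.
Klrk1: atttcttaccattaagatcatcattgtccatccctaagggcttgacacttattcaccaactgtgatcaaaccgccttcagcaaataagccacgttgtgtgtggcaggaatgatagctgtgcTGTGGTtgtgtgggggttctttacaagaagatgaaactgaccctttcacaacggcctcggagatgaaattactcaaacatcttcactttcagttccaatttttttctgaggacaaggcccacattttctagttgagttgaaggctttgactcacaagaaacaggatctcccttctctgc
Klrc1: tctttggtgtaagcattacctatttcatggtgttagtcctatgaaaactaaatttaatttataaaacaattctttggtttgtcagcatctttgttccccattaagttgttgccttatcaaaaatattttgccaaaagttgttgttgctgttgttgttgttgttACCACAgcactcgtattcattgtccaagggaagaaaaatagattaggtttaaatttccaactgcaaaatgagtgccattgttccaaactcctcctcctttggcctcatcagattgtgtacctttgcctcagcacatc
Klrc2: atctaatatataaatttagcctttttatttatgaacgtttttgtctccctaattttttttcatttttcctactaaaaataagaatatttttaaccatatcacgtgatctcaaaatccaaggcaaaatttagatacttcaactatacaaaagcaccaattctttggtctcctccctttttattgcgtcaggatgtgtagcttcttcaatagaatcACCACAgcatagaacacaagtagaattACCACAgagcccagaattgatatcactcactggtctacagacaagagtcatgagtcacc
Klre1: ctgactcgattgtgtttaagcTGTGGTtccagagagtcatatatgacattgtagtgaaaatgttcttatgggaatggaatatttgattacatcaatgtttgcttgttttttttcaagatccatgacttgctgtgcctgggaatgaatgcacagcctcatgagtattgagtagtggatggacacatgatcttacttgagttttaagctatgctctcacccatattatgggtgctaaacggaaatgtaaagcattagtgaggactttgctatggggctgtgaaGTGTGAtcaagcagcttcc
Klrb1c: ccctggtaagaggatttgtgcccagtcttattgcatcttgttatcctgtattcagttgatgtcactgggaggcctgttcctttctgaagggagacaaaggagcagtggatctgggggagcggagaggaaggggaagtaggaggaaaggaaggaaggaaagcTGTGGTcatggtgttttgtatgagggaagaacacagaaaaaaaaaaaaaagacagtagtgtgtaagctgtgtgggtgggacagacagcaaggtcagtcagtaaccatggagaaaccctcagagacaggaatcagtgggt
Runx letters were found in 6 of the 7 genes with a promoter entry, against 16.8% of 32851 promoters of the same length, and T-box letters in 2 of 7, Klre1 and Klra1, against 14.5%. A gene counted if any of its entries matched, whereas the background counted each promoter by itself, so the shares are not strictly comparable. Klrc2, Klre1 and Klra8 had 2 entries each, and entry 2 of Klre1 had no Runx letters. Only entry 1 of a gene is shown. A match of letters is a description and not a binding site.

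The libraries were of like depth. The CKO library held 7896 barcodes with 52387620 unique molecular identifiers (UMIs), and the control library held 7407 barcodes with 48273424 UMIs. After filtering, 7565 CKO and 6617 control T cells remained, with medians of 6049 and 6288 UMIs. Only 11 barcodes occurred in both libraries. Levels are CPM, the UMIs of a gene scaled to a fixed total for all genes of a class of cells in a library, with 95% Poisson intervals that cover counting error only. Prmt5 itself had 4.87 CPM in CKO T cells (4.28 to 5.51) and 15 CPM in control T cells (13.9 to 16.2), a check made with a 3′ tag that may lie outside the deleted part.

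Cells with γδ T cell receptor transcripts differed in number between the libraries, and their part in the results was tested only by leaving them out. Trdc, which encodes the constant region of the T cell receptor δ chain, was at 109 CPM in CKO T cells and 28.5 CPM in control T cells. At least 1 Trdc UMI was present in 11.3% of CKO (852) and 3.79% of control T cells (251), against 2 of 72 CKO and 0 of 68 control B-like cells. The share was higher in the CKO library in every class listed next: 41.4% against 0 of 47 cells in effector-like CD8 cells, 46.5% against 5.34% in memory-like CD8 cells, 38.8% against 1.43% in memory-like CD4 cells, 10.8% against 2.29% in Treg-like cells, 8 of 10 against 1 of 90 NKT-like cells and 54.6% against 35.0% in the Fcer1g cluster. Receptor ratios are therefore given for all cells of a class and for cells without a Trdc UMI, a division chosen after the data were seen.

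Over all T cells, Klrg1 was the only one of the 9 genes more than 2-fold higher in CKO cells, and Klra1 the only one more than 2-fold lower. Of all 13735 genes tested, 4.16% were past 2-fold higher and 2.12% past 2-fold lower. Klrg1 had 15.3 CPM in CKO cells (784 UMIs in 212 cells) and 6.22 CPM in control cells (290 UMIs in 76 cells), a log2 ratio of 1.30 (1.10 to 1.496). With the stricter cell filter of 1000 genes and 5% mitochondrial UMIs, which kept 74.5% of CKO and 46.2% of control T cells, the ratio was 0.81 and no longer past 2-fold. Klrk1 had 23.6 CPM in CKO and 12.3 CPM in control cells, a log2 ratio of 0.95 (0.80 to 1.09). Klre1, a receptor of NK cells that partners with other lectin-like chains, had 13.1 and 6.82 CPM in CKO and control cells (log2 ratio 0.94, 0.75 to 1.14). The CD94 partners followed at smaller ratios: Klrc1 had 14.4 CPM in CKO and 8.06 CPM in control cells (0.83, 0.65 to 1.02), and Klrc2 had 8.41 and 5.53 CPM in CKO and control cells (0.61, 0.38 to 0.83). Klrd1, the most abundant, had 142 CPM in CKO and 143 CPM in control cells (-0.02, -0.06 to 0.03), in 28.5% of CKO and 32.7% of control cells. Klrb1c had 4.29 CPM in CKO and 5.32 CPM in control cells (-0.31, -0.58 to -0.04), and Klra1 had 1.75 and 5.85 CPM in CKO and control cells (-1.74, -2.10 to -1.39). Klra8 was near absent, with 6 UMIs in 1 CKO cell and 9 UMIs in 2 control cells. The median log2 ratio of the 9 genes was 0.61, against 0.06 over all genes tested. Class makeup differed between the libraries, and with the class levels of each library set on the control makeup the log2 ratio was 1.19 for Klrg1, 0.77 for Klrk1 and -1.504 for Klra1. Set on the CKO makeup the ratios were 0.74, 0.38 and -1.77.

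In the CKO library, cells with a Trdc UMI held most UMIs of Klrk1, Klrc1, Klrc2, Klre1, Klrb1c and Klra1. They held 72.1% of Klrk1 UMIs in the CKO library and 14.5% in the control library. For Klrc1 the shares were 73.0% in CKO and 21.0% in control cells, for Klrc2 74.3% and 15.9%, for Klre1 67.6% and 14.5%, for Klrb1c 78.6% and 10.5%, and for Klra1 74.4% and 12.1%. For Klrg1 the share was 31.1% in the CKO library and 0 of 290 UMIs in the control library. In cells without a Trdc UMI, Klrg1 stayed higher in the CKO library, at 12.1 CPM against 6.49 CPM in control cells (log2 ratio 0.90, 0.70 to 1.11). The ratios of the other 7 genes shown were negative in such cells: Klrk1 had 7.62 CPM in CKO and 10.96 CPM in control cells (-0.52, -0.73 to -0.32), Klrc1 -0.57 (-0.84 to -0.31), Klrc2 -0.96 (-1.30 to -0.62) and Klre1 -0.31 (-0.58 to -0.05). Klrb1c had 1.06 CPM in CKO and 4.96 CPM in control cells without Trdc (-2.23, -2.72 to -1.77), Klrd1 a ratio of -0.28 (-0.33 to -0.23) and Klra1 of -3.38 (-4.06 to -2.76). Among cells with Trdc, 852 CKO and 251 control cells, the ratios were positive for Klrk1 (1.59, 1.26 to 1.93), Klre1 (1.49, 1.05 to 1.96), Klrc2 (1.16, 0.68 to 1.66), Klrc1 (0.96, 0.61 to 1.31), Klrb1c (0.92, 0.32 to 1.58) and Klrd1 (0.59, 0.44 to 0.75), and negative for Klra1 (-0.79, -1.41 to -0.14). The cells with Trdc were not uniform. Over all T cells, 72% of them in the CKO library and 86% in the control library also had a Trac UMI, of the α chain, and 38% and 29% had a UMI of the γ chain gene Tcrg-C1.

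**Figure D1:**
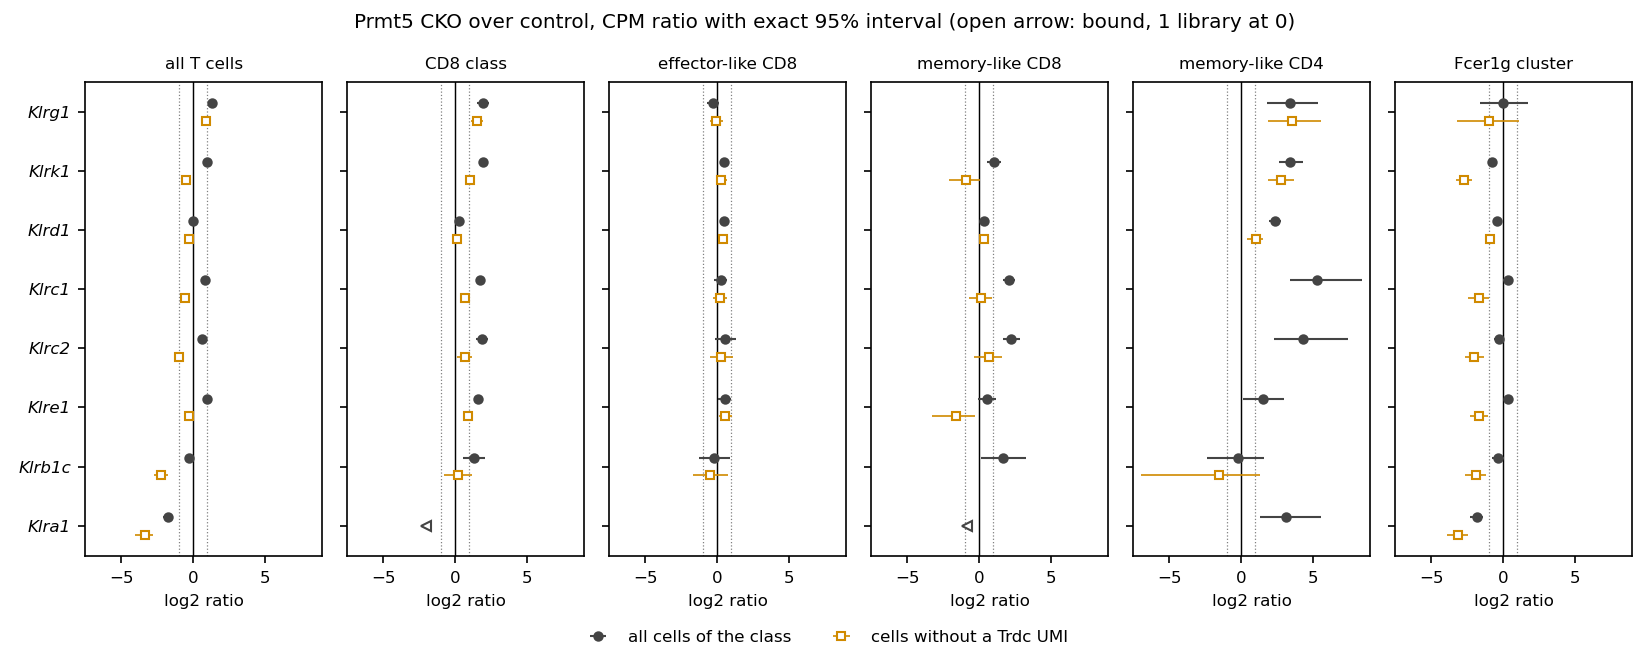
Log2 ratio of CPM, Prmt5 CKO over control, for 8 receptors (rows) in 6 sets of cells (panels); filled circles are all cells of the set, open squares cells without a Trdc UMI, bars exact 95% intervals, dotted lines 2-fold, and open arrows bounds where the CKO library had no UMI. In all T cells the open squares of Klrk1 (-0.52), Klrc1 (-0.57), Klrc2 (-0.96) and Klre1 (-0.31) lie left of 0 and that of Klrg1 (0.90) right of it.

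Klrg1 sat in few classes. Treg-like cells held 57.7% of its UMIs in the CKO library and 61.0% in the control library, effector-like CD8 cells 26.5% and 24.1%, and proliferating-like cells 9.69% and 9.31%. In order of level it was highest in effector-like CD8 cells, then Treg-like and proliferating-like cells, in both libraries, with intervals for effector-like and Treg-like CKO cells that overlap (139 to 183 and 122 to 147 CPM). The order of the next classes differed between the libraries, on few UMIs: memory-like CD4 cells had 14.3 CPM in CKO and 1.35 CPM in control cells, the Fcer1g cluster 4.92 CPM in CKO and 5.01 CPM in control cells, and NKT-like cells no UMI in 10 CKO cells and 4 UMIs, or 5.88 CPM, in 90 control cells. In the CD8 classes other than effector-like it was at or near 0: naive-like CD8 cells held 3 UMIs in CKO and 1 UMI in control cells, and memory-like CD8 cells 1 UMI in each.

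In Treg-like cells Klrg1 had 134 CPM in CKO cells (452 UMIs) and 48.1 CPM in control cells (177 UMIs), a log2 ratio of 1.48 (1.22 to 1.74). Positive cells made up 15.8% of CKO (76 of 480) and 7.05% of control cells (37 of 525). After each cell was thinned to 2000 UMIs, the positive share was 12.2% in CKO (58 of 476) and 3.87% in control cells (20 of 517), a ratio of shares of 3.15 (1.87 to 5.53) in 1 draw and of 2.46 with the shares averaged over 200 draws. Among B-like cells, which should lack the gene, 1 of 72 in the CKO and 0 of 66 in the control library kept a UMI after thinning. Before thinning 1 control B-like cell alone held 16 Klrg1 UMIs. In Treg-like cells without Trdc the level was 115 CPM in CKO and 49.9 CPM in control cells (log2 ratio 1.20, 0.94 to 1.48). Of the 5 receptors tested in Treg-like cells, 4 were past 2-fold higher and 0 lower, against 3.46% and 3.48% of 10448 genes. Besides Klrg1 these were Klrc1, with 12 UMIs in 4 CKO cells and none in control cells, Klrc2, with 10 UMIs in 2 CKO cells and 1 UMI in control cells, and Klre1, with 12 UMIs in 4 CKO cells and 2 UMIs in control cells. Klrc1, Klrc2 and Klre1 reached the minimum of 10 UMIs through CKO cells alone, so the filter itself favoured a higher call. Below the minimum were Klrk1, with 1 UMI in CKO and 3 UMIs in control cells, and Klrb1c, with 2 and 4 UMIs. All of the Klrc1 and Klrc2 UMIs of CKO Treg-like cells lay in cells with Trdc. Without such cells Klrc1 had no UMI in either library, Klrc2 had 0 in CKO and 1 UMI in control cells, and Klre1 had 8 UMIs in CKO and 2 UMIs in control cells (2.29, -0.03 to 5.57).

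Klrg1-positive Treg-like cells are described beside Klrg1-negative ones within each library, as cells that share a library. Prdm1, which encodes the effector regulator BLIMP-1, had 37.8 CPM in positive and 5.27 CPM in negative CKO cells, and 31.2 CPM in positive and 7.52 CPM in negative control cells. Gzmb, a granzyme, had 136 and 7.52 CPM in positive and negative CKO cells, and 164 and 3.31 CPM in positive and negative control cells. Id2 and S100a4 were also higher in positive cells of both libraries, and Bach2 and Ccr7, genes of resting cells, lower. Ccl5, a chemokine, was at 585 and 85.0 CPM in positive and negative CKO cells, and at 82.2 and 67.3 CPM in positive and negative control cells. Trdc was at 166 and 32.0 CPM in positive and negative CKO cells, and at 0 and 7.21 CPM in positive and negative control cells. Of the Treg markers, Il2ra was lower in positive cells of both libraries, with log2 ratios of positive over negative cells of -0.67 (-0.997 to -0.36) in CKO and -1.07 (-1.60 to -0.59) in control cells. Foxp3 was at 291 CPM in positive and 242 CPM in negative CKO cells. In the control library Foxp3 was at 295 and 209 CPM in positive and negative cells. Ctla4 was higher in positive cells, with log2 ratios of 0.92 (0.72 to 1.11) in CKO and 0.44 (0.23 to 0.65) in control cells. Ikzf2 was higher too, at 0.58 (0.47 to 0.69) in CKO and 0.33 (0.17 to 0.48) in control cells. The intervals of Ikzf4 include 0 in both libraries. Positive cells were also deeper, with medians of 7944.5 and 5503 UMIs in positive and negative CKO cells and 7318 and 5845 UMIs in positive and negative control cells. The other receptors were rare in them: Klrk1 was in 0 of 76 CKO and 1 of 37 control cells that held Klrg1, and Klrd1 in 6 CKO and 2 control cells.

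In the CD8 class, the sum of naive-like, memory-like, effector-like and interferon-responding CD8 cells, 6 of the 8 genes tested were past 2-fold higher in CKO cells and 1, Klra1, past 2-fold lower, against 4.31% and 1.68% of 11675 genes. Klrg1 had 16.8 CPM in CKO and 4.37 CPM in control cells (log2 ratio 1.94, 1.55 to 2.35). With thinning, the positive share was 2.47% in CKO (41 of 1662) and 0.722% in control cells (15 of 2078). The stricter cell filter kept 69.6% of CKO and 39.8% of control CD8 cells, and the Klrg1 log2 ratio was then 0.93. Klrk1 had 44.2 CPM in CKO and 11.5 CPM in control cells (1.95, 1.71 to 2.19), Klrc1 25.8 and 7.78 CPM (1.73, 1.43 to 2.04), Klrc2 13.4 and 3.64 CPM (1.88, 1.45 to 2.33) and Klre1 23.8 and 7.84 CPM (1.60, 1.30 to 1.91). In CD8 cells without a Trdc UMI only 2 genes were past 2-fold higher, Klrg1 (1.52, 1.10 to 1.95) and Klrk1 (1.07, 0.78 to 1.35). Klra1 stayed past 2-fold lower in such cells, by the floor as in the whole class. It had no UMI in CKO CD8 cells and reached the UMI minimum through control cells alone. All 16 control UMIs lay in 4 cells without Trdc, and 15 of the 16 were in memory-like CD8 cells. No share of all genes was computed for cells without Trdc. Effector-like cells numbered 162 of 1667 CKO and 47 of 2079 control CD8 cells.

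Within effector-like CD8 cells none of the 7 genes tested was past 2-fold in either direction, where 7.12% of 8022 genes were past 2-fold higher and 5.57% lower. Klrg1 had 160 CPM in CKO cells (139 to 183) and 194 CPM in control cells (151 to 245), a log2 ratio of -0.28 (-0.68 to 0.13), with positive shares of 49.4% in CKO (80 of 162) and 53.2% in control cells (25 of 47). Klrk1 had 369.9 CPM in CKO and 258 CPM in control cells (0.52, 0.20 to 0.86), in 61.1% of CKO and 38.3% of control cells. Klrd1 had 861 CPM in CKO and 604 CPM in control cells (0.51, 0.30 to 0.73), and Klre1 196 and 136 CPM (0.53, 0.09 to 1.004). The intervals of Klrc1 (0.25, -0.20 to 0.73), Klrc2 (0.56, -0.16 to 1.35) and Klrb1c (-0.22, -1.24 to 0.90) include 0. Klra1 had no UMI in either library, which allows up to 1.85% of CKO and 6.38% of control cells with a UMI. Without Trdc cells the Klrk1 ratio was 0.30 (-0.05 to 0.67) and that of Klrd1 0.44 (0.22 to 0.67). Cd8b1 was in 73.5% of CKO and 74.5% of control effector-like cells, and Ncr1, an NK cell marker, in none of either. The summed level of 10 NK marker genes was 338 CPM in CKO and 371 CPM in control effector-like cells.

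**Figure D2:**
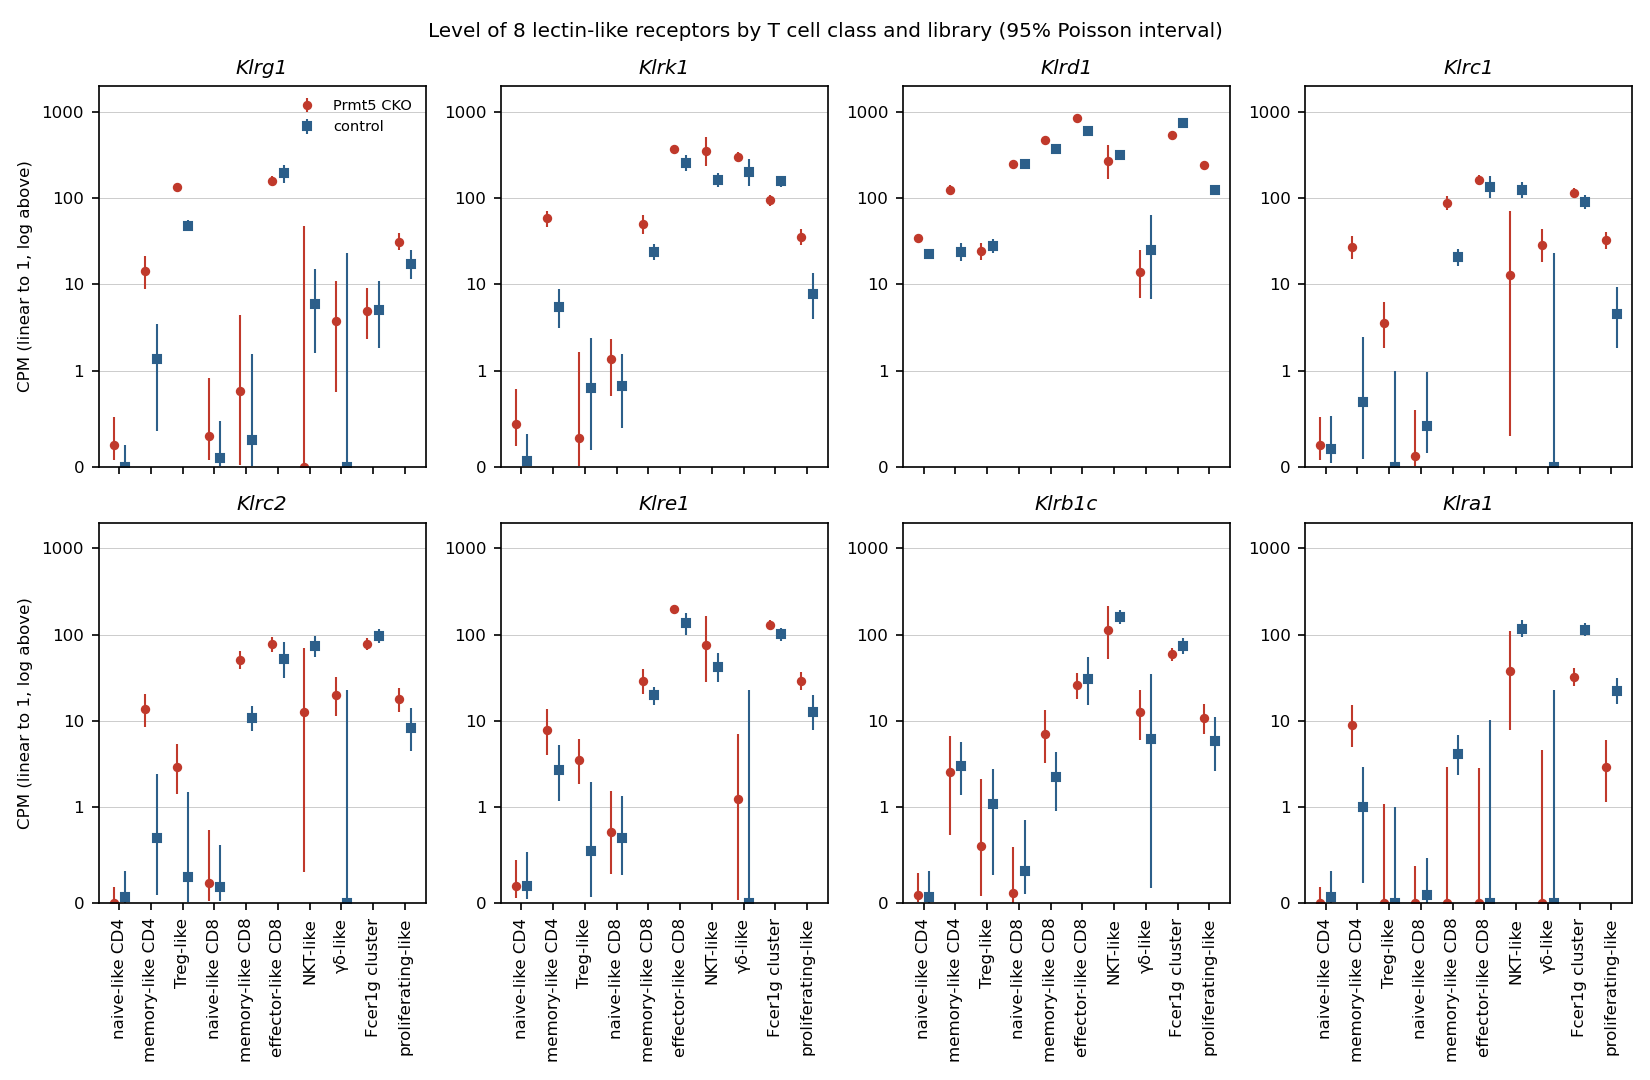
Level (CPM, linear to 1 and logarithmic above) of 8 receptors in 10 classes of T cells, Prmt5 CKO as red circles and control as blue squares, with 95% Poisson intervals. Klrg1 stands at 134 CPM in CKO and 48.1 CPM in control Treg-like cells, and at 160 and 194 CPM in CKO and control effector-like CD8 cells.

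**Figure D3:**
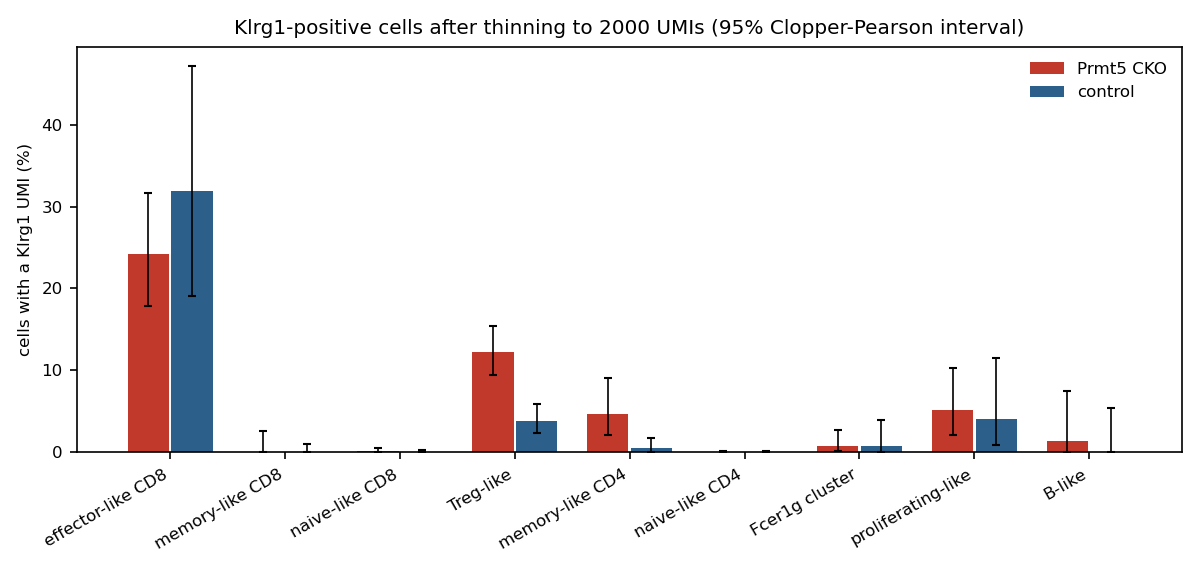
Share of cells with a Klrg1 UMI after 1 draw of thinning to 2000 UMIs, by class, Prmt5 CKO in red and control in blue, with 95% Clopper-Pearson intervals. The bars are 24.2% and 31.9% in effector-like CD8 cells and 12.2% and 3.87% in Treg-like cells, CKO and control. Averaged over 200 draws the shares were 25.9% and 27.3% in effector-like CD8 cells and 10.9% and 4.43% in Treg-like cells.

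Klrg1 and the other receptors were combined differently in effector-like cells. Klrk1 was in 48 of 80 Klrg1-positive CKO cells and in 62.2% of the Klrg1-negative ones, and in 44.0% of positive and 31.8% of negative control cells. Klrk1-positive cells, in contrast, more often held the CD94 partners: Klrc1 was in 63.6% of Klrk1-positive and 22.2% of Klrk1-negative CKO cells, and in 61.1% of positive and 27.6% of negative control cells. For Klrc2 the shares were 48.5% and 11.1% of positive and negative CKO cells, and 38.9% and 6.90% of positive and negative control cells. Cells with at least 3 of the 9 genes made up 69.8% of the CKO effector-like class (62.1% to 76.7%). In the control effector-like class that share was 55.3% (40.1% to 69.8%), so the intervals overlap. In memory-like CD8 cells it was 25.4% in CKO (18.4% to 33.3%) and 9.27% in control cells (6.47% to 12.8%). The shares of this paragraph were not thinned and include cells with Trdc.

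**Figure D4:**
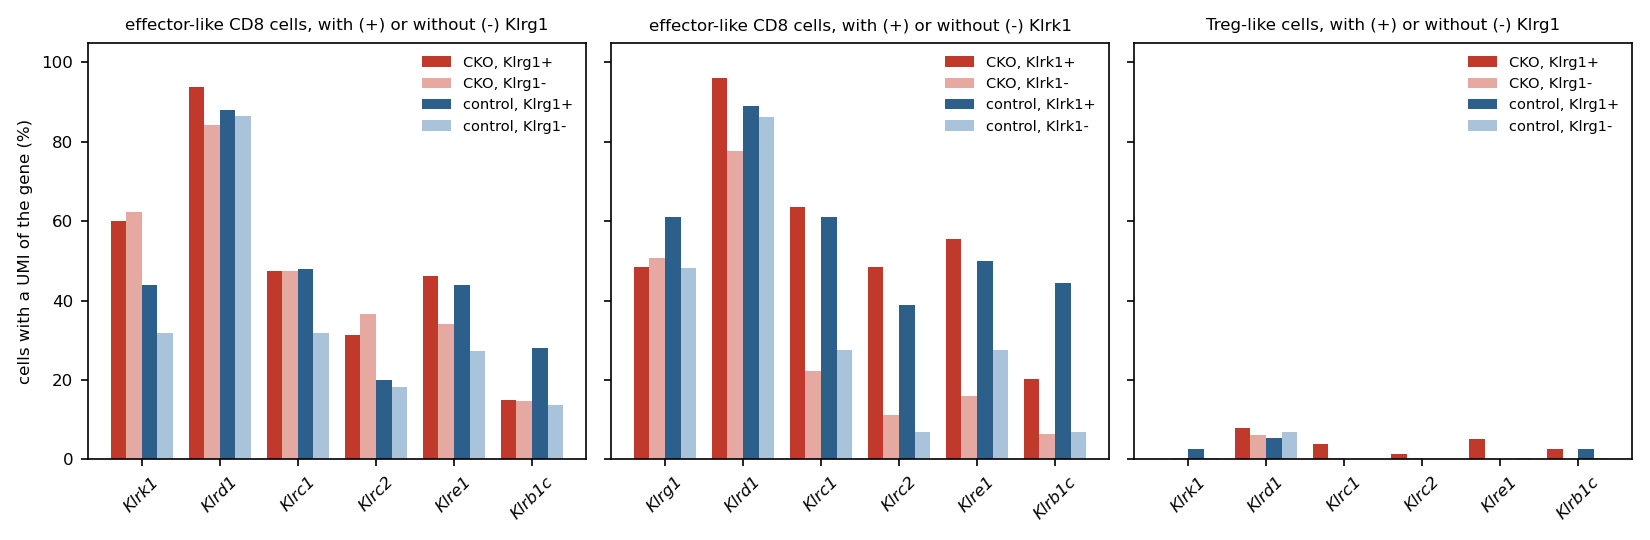
Share of cells (%) with a UMI of each receptor among cells with (dark bars) and without (light bars) Klrg1 or Klrk1, Prmt5 CKO in red left of control in blue. In effector-like CD8 cells Klrc1 was in 63.6% of Klrk1-positive against 22.2% of Klrk1-negative CKO cells, whereas in Treg-like cells Klrk1 was in 0 of 76 Klrg1-positive CKO cells.

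In memory-like CD8 cells 4 of 7 genes were past 2-fold higher and 0 past 2-fold lower in CKO cells, against 4.24% and 3.66% of 9334 genes. Klrc1 had 87.8 CPM in CKO cells (111 UMIs in 41 of 142 cells) and 20.6 CPM in control cells (74 UMIs in 39 of 356 cells), a log2 ratio of 2.09 (1.65 to 2.54). Klrc2 had 51.4 CPM in CKO and 10.9 CPM in control cells (2.24, 1.65 to 2.85), and Klrk1 49.8 and 24.0 CPM (1.06, 0.56 to 1.54). Klrb1c had 9 UMIs in CKO and 8 UMIs in control cells (1.68, 0.13 to 3.25). The class was made up of different clusters: the one led by Gzmm, in which 34.9% of cells had Trdc and Klrc1 and Klrc2 were among the leading genes, held 66 of 142 CKO and 103 of 356 control cells, and one led by Ifngas1 held 10 CKO and 94 control cells. In cells without a Trdc UMI no gene was past 2-fold higher: Klrc1 had 23.4 CPM in CKO and 21.1 CPM in control cells (0.15, -0.70 to 0.93), and Klrk1 12.4 and 23.4 CPM (-0.92, -2.10 to 0.08). Klre1 was past 2-fold lower without Trdc cells, with 5 UMIs in CKO and 70 UMIs in control cells (-1.57, -3.24 to -0.28). It reached the minimum of 10 UMIs through control cells alone, and no share of all genes was computed for cells without Trdc. In cells with Trdc, Klrc1 was in 33 of 66 CKO cells and 2 of 19 control cells. Cd8b1 was in 33% of those CKO cells and in 99% of CKO memory-like cells without Trdc. When the clustering included the Klr genes, the log2 ratios in this class were -0.11 for Klrc1 and -0.63 for Klrk1. Klrd1 was high in both libraries, at 478 CPM in CKO and 373 CPM in control cells (0.36, 0.22 to 0.50), and at 249 and 247 CPM in CKO and control naive-like CD8 cells.

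Memory-like CD4 cells had 7 of 8 genes past 2-fold higher in CKO cells and 0 lower, against 4.84% and 4.66% of 9693 genes. Of these, Klrg1, Klrc1, Klrc2, Klre1 and Klra1 reached the minimum of 10 UMIs through CKO cells alone. Klrk1 had 58.4 CPM in CKO cells (90 UMIs in 27 of 170 cells) and 5.41 CPM in control cells (16 UMIs in 9 of 419 cells), a log2 ratio of 3.43 (2.65 to 4.30). Klrg1 had 22 UMIs in 15 CKO cells and 4 UMIs in 2 control cells (3.40, 1.84 to 5.40), and Klrc1 42 UMIs in 12 CKO cells and 2 UMIs in 2 control cells (5.33, 3.39 to 8.42). Klrd1 had 125 CPM in CKO and 24.0 CPM in control cells (2.38, 1.98 to 2.80). The 14 Klra1 UMIs of CKO cells came almost wholly from 1 cell, with 13, and 11 of the 12 Klre1 UMIs of CKO cells from 1 cell with Trdc. Without Trdc cells Klre1 had 1 UMI in CKO and 8 UMIs in control cells (-1.36, -6.83 to 1.54). Different clusters made up the class: the Lilr4b, Ccr10 and Il22 clusters held 52, 45 and 35 of the 170 CKO cells and 21, 52 and 5 of the 419 control cells, whereas the Maf and Tox2 clusters held 9 and 10 CKO and 131 and 88 control cells. Without Trdc cells 3 genes were past 2-fold higher and 1 lower, and no share of all genes was computed for such cells. Klrk1 was at 37.4 CPM in CKO and 5.47 CPM in control cells (2.77, 1.88 to 3.72). Klrg1 was at 16.0 and 1.37 CPM (3.55, 1.90 to 5.60) and Klrd1 at 49.1 and 24.3 CPM (1.02, 0.45 to 1.57). Klrg1 reached the minimum through CKO cells alone, with 15 UMIs in CKO and 4 UMIs in control cells. The lower gene was Klrb1c, with 1 UMI in CKO and 9 UMIs in control cells (-1.53, -6.98 to 1.32).

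In naive-like CD4 cells Klrd1 had 35.0 CPM in CKO and 22.6 CPM in control cells (0.63, 0.45 to 0.81). Its thinned share there was 5.28% of CKO and 4.55% of control cells in 1 draw, and 5.65% of CKO and 3.88% of control cells over 200 draws. In B-like cells the share over 200 draws was 1.94% in CKO and 3.64% in control cells, and the control values of both classes lie close together. Klrk1, with 10 UMIs in CKO and 1 UMI in control cells (2.86, 0.05 to 8.30), was the 1 of 2 genes tested that was past 2-fold higher, and 0 were lower, against 3.24% and 1.66% of 11880 genes. Klrk1 reached the minimum of 10 UMIs through CKO cells alone. Klrg1 was in 5 of 3933 CKO and 0 of 2827 control naive-like CD4 cells.

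**Figure D5:**
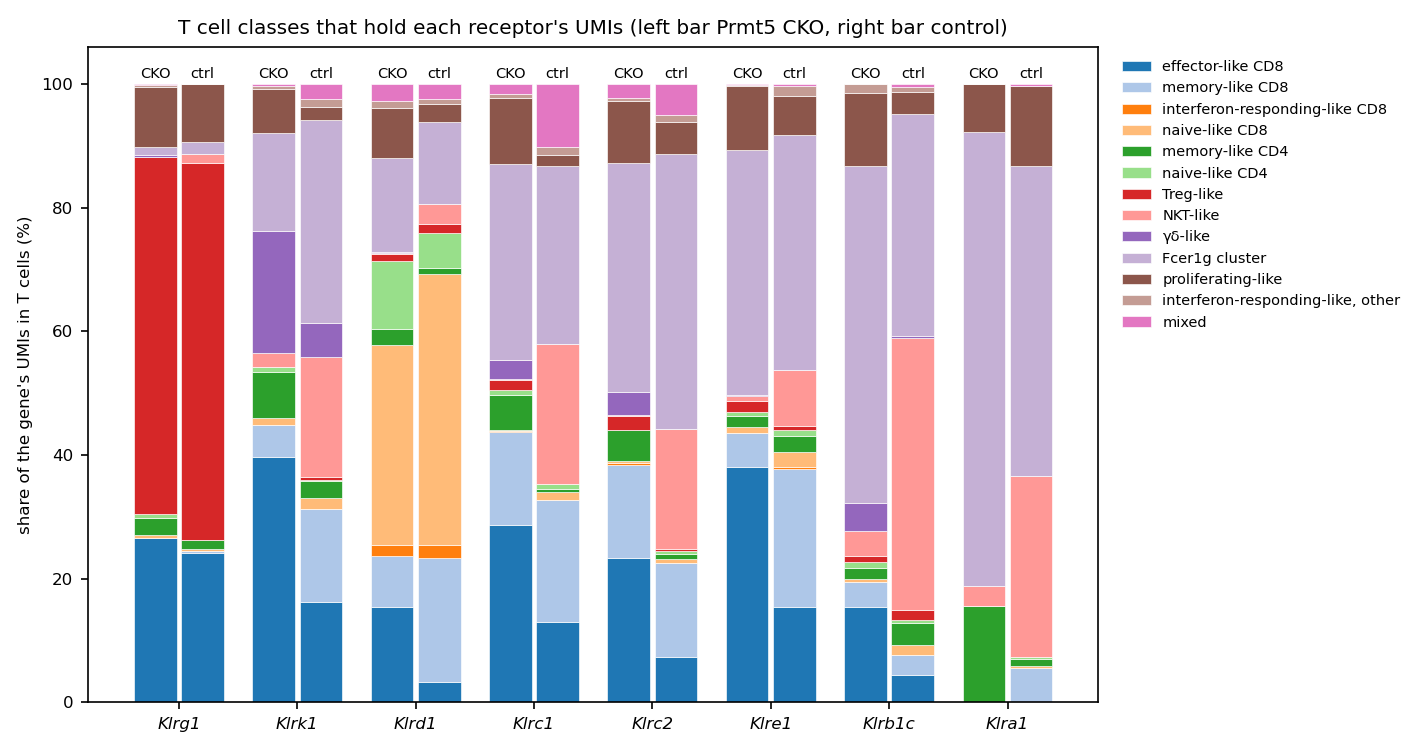
Share (%) of the T cell UMIs of 8 receptors by class, left bar Prmt5 CKO and right bar control for each gene. Treg-like cells hold 57.7% of CKO and 61.0% of control Klrg1 UMIs, whereas the Fcer1g cluster and NKT-like cells hold most of the control Klra1 and Klrb1c UMIs.

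The Fcer1g cluster, T cells with 260 CKO and 140 control members in which Cd3e was in 98.8% of CKO and 97.1% of control cells, held 73.3% of CKO and 50.2% of control Klra1 UMIs. Klra1, an Ly49 receptor, had 32.5 CPM in CKO cells (66 UMIs in 13 cells) and 114 CPM in control cells (137 UMIs in 28 cells), a log2 ratio of -1.82 (-2.26 to -1.38). It was the only one of the 9 genes past 2-fold there, where 4.98% of 9464 genes were past 2-fold higher and 2.07% lower. Klra7, an Ly49 gene outside the 9, had 47.2 CPM in CKO and 170 CPM in control cells (-1.84, -2.21 to -1.49), and Klra6 34.9 and 74.4 CPM (-1.09, -1.56 to -0.62). Of the 11 lectin-like genes outside the 9 tested there, 4 were higher and 7 lower. Past 2-fold were 0 higher and 3 lower, and the median log2 ratio was -0.18. Klrk1 had 94.5 CPM in CKO and 157 CPM in control cells (-0.73, -1.03 to -0.44), Klrd1 545 and 739.6 CPM (-0.44, -0.57 to -0.31), and Klrc1 115 and 90.2 CPM (0.35, 0.02 to 0.69). Klrb1c had 59.1 CPM in CKO and 74.4 CPM in control cells (-0.33, -0.74 to 0.08). In cells without Trdc the ratios of all 8 genes with at least 10 UMIs were negative, from -0.90 for Klrd1 to -3.13 for Klra1, though the interval of Klrg1 (-0.96, -3.23 to 1.11) includes 0. In cells with Trdc of the same cluster Klrk1 (1.36, 0.75 to 2.04), Klre1 (1.27, 0.77 to 1.797) and Klra1 (3.22, 1.28 to 6.31, with 2 control UMIs) had positive ratios. Ncr1 was in 9 CKO and 8 control cells of the cluster, and the summed NK marker level was 1005 CPM in CKO and 1096 CPM in control cells. Fcer1g, by which the cluster was named, is among the summed NK marker genes, so a high sum was partly set by the naming.

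NKT-like cells numbered 10 CKO and 90 control cells, so the CKO values rest on few cells. Of these, 8 CKO cells and 1 control cell had a Trdc UMI, and all 8 also had UMIs of the γ chain genes Tcrg-C2 and Tcrg-C4, so the class was not alike in the 2 libraries. Klrb1c was in 4 of 10 CKO and 44 of 90 control cells, and Klrk1 in 4 of 10 and 33 of 90. The 80 Klra1 UMIs of control NKT-like cells came from 5 cells. In γδ-like cells (102 CKO, 17 control), Klrk1 was in 68 CKO cells (66.7%) and 12 control cells (70.6%), at 301 and 200.2 CPM, whereas Klrd1 was at 13.9 CPM in CKO and 25.02 CPM in control cells. In proliferating-like cells 4 of 8 genes were past 2-fold higher and 1 lower in CKO cells, against 5.38% and 2.86% of 9701 genes, with Klrk1 at 35.6 CPM in CKO and 7.72 CPM in control cells (2.20, 1.33 to 3.21). Without Trdc cells Klrk1 had 4 UMIs in CKO and 12 UMIs in control proliferating-like cells (-1.96, -4.05 to -0.23). Klrc1 stayed past 2-fold higher in such cells, with 19 UMIs in CKO and 4 UMIs in control cells (1.88, 0.29 to 3.89). The ratios of Klrc2 (-0.79, -2.21 to 0.58) and Klre1 (-1.46, -2.88 to -0.17) were negative there. No share of all genes was computed for these cells. Klrc1 reached the minimum of 10 UMIs through CKO cells alone, also in the whole class, with 79 UMIs in CKO and 7 UMIs in control cells. The lower gene of the whole class, Klra1, reached it through control cells alone, with 7 UMIs in CKO and 35 UMIs in control cells.

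Genes that act with the receptors were examined next. Over all T cells 1 of 18 adaptor and signalling genes was past 2-fold higher and 0 lower, with a median log2 ratio of 0.06, the same as over all genes tested. The gene past 2-fold was Lck, the proximal kinase of T cells, at 1085 CPM in CKO and 453 CPM in control cells (1.26, 1.24 to 1.28). Hcst, which encodes DAP10, was at 357 CPM in CKO and 427 CPM in control cells (-0.26, -0.29 to -0.23), and Tyrobp, which encodes DAP12, at 6.95 and 5.49 CPM (0.34, 0.11 to 0.58). Of 6 ligand genes with enough UMIs, 0 were past 2-fold higher and 1 lower, Cdh1 (E-cadherin, a ligand of KLRG1), with 3 UMIs in CKO and 10 UMIs in control cells. H2-T23, which encodes Qa-1, was at 333 CPM in CKO and 363 CPM in control cells (-0.13, -0.16 to -0.10), and Clec2i, a ligand of another lectin-like receptor, at 75.0 and 43.2 CPM (0.80, 0.72 to 0.88). Of 14 transcription factor genes 1 was past 2-fold higher and 0 lower. This was Zeb2, a transcription factor of terminal effector differentiation, at 12.4 CPM in CKO and 5.98 CPM in control cells (1.06, 0.85 to 1.26), but at 293 and 430 CPM in CKO and control effector-like CD8 cells (-0.55, -0.82 to -0.27). Tbx21, which encodes T-bet, was at 6.97 CPM in CKO and 7.01 CPM in control T cells (-0.01, -0.23 to 0.21). Of the 12 other lectin-like genes tested, 2 were past 2-fold higher (Klrb1b and Klra5) and 3 lower (Klra4, Klra7 and Klra9), with a median of 0.29. Cdh1 and the genes in these parentheses other than Klra7 were named after their values were seen. Over all 13735 genes tested, 4.16% were past 2-fold higher and 2.12% lower.

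Likeness between genes was described by Pearson's r of log2 CPM over 24 combinations of class and library, which share libraries and depth. The pattern of Klrk1 was closest to Klrc2 (r = 0.922) and Klrc1 (r = 0.919) among 9686 genes, with Klrb1c at 0.888 and Klre1 at 0.826. The gene closest to Klrg1 was Lamc1 (r = 0.916), followed by Cyba (0.896) and Sh3bgrl (0.869), whereas Klrk1 was at 0.465. Klrd1 was closest to Ctsw (0.941), Ly6c2 (0.889) and Nkg7 (0.864), of which Ctsw and Nkg7 encode proteins of cytotoxic cells.

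Both libraries held cells with Y-linked UMIs but no Xist (2197 CKO and 1654 control cells) and cells with Xist but no Y-linked UMIs (3275 CKO and 3190 control cells). The Klrg1 log2 ratio over all T cells was 1.40 in cells with Y-linked UMIs and 1.23 in cells with Xist, and in Treg-like cells 1.81 and 1.18. In effector-like cells it was 0.55, with 45 CKO and 10 control cells with Y-linked UMIs, and -0.43 in cells with Xist. Of the Klrg1-positive T cells, all 212 CKO and all 76 control cells had a Cd3 UMI, and none had Ncr1.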

How the data were processed

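The deposited matrices hold counts, whole numbers of UMIs per gene and cell barcode from the 10x Genomics 3′ chemistry V3.1, made by the authors with Cell Ranger 3.1.0 on mm10, per the submitters' processing notes, which also name CASAVA 1.8 and Seurat 2.3.4. Groups came from the sample titles. The 9 genes and the gene lists were chosen with earlier results of these data known. The cell filter asked for 500 genes and less than 10% mitochondrial UMIs. Both libraries were clustered together in scanpy 1.11.5 (2000 variable genes, 30 components, 15 neighbours, Leiden resolution 1, seed 1). Klr, receptor, immunoglobulin, mitochondrial and ribosomal genes were left out. Clusters of at least 60 cells with Il2rb in at least 45% of them were divided again. Treg-like, effector-like CD8, proliferating-like, γδ-like, B-like and myeloid-like clusters were kept whole, whatever their Il2rb share. Classes were named by thresholds on single marker genes, set after the clusters were seen: effector-like CD8 by Gzma in 40% of cells, memory-like CD8 by Ly6c2 in 70%, Treg-like by Foxp3 in 40%. The doublet caller called 0 cells in each library and so has not worked: doublets remain.

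UMIs were summed per class and library. Ratios carry exact conditional binomial intervals, shares Clopper-Pearson intervals, all at 95% and for counting error only, and UMIs of 1 cell are not independent. "Past 2-fold" needed 10 UMIs over both libraries. A gene can reach that minimum through 1 library alone, which favours a call in that direction. A library at 0 was given a floor of 3 UMIs per library and class, and a share of 0 an upper limit of 3 cells of the total. Shares were thinned to 2000 UMIs. Only the ratios and their intervals were tested on simulated data, with UMIs drawn independently of each other. Clustering, class naming, thinning and co-detection were not tested in this way. Named list genes were up to 4 per list with the largest log2 ratios at 100 UMIs or more, and Hcst, Tbx21, Trdc, Tcrg-C1, Klrg1-positive cell genes and subclass marker genes were chosen after their values were seen. Likeness used pseudocount 1, classes of at least 20 cells and genes of at least 200 UMIs.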

Additional observations from a re-analysis of the deposited data

Results flagged for a closer look

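For 4 genes the ratio was above 0 in one class and below 0 in another, with both intervals off 0. The difference between classes was not tested. Klrk1 had a log2 ratio of CKO over control of 3.43 in memory-like CD4 cells and of -2.82 in mixed cells, where the 14 control UMIs came from 1 cell and the 3 CKO UMIs from 3 cells. Klrd1 had 2.38 in memory-like CD4 cells and -0.44 in the Fcer1g cluster. Klrc1 had 5.33 in memory-like CD4 cells and -2.26 in mixed cells, with 12 UMIs in 5 CKO cells and 38 UMIs in 9 control cells. Klra1 had 3.16 in memory-like CD4 cells, where 13 of 14 CKO UMIs came from 1 cell, and -2.96 in proliferating-like cells, with 3 positive cells in each library.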

How the results depend on the processing

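No paired analysis was possible because each group is 1 library, and for the same reason no replicate was left out. Over 48 results and 569 alternatives, 445 stayed within the counting interval (a count of genes, within 1.5 times), 116 moved and 8 reversed, and the cause was not tested. With the stricter cell filter (1000 genes, 5% mitochondrial UMIs) the Klrg1 log2 ratio was 0.81 over all T cells and 0.93 in the CD8 class, and the ratio of Klrg1 shares in the CD8 class was 1.54, against 3.42 as reported. Then 0 genes were past 2-fold higher and 2 lower over all T cells, 0 lower in the CD8 class and 2 higher in memory-like CD8 cells. Restriction to cells without a Trdc UMI, chosen after seeing the data, gave log2 ratios over all T cells of 0.90 for Klrg1, -0.52 for Klrk1, -0.57 for Klrc1, -0.96 for Klrc2 and -0.31 for Klre1. It gave Klrg1 ratios of 1.52 in the CD8 class and 1.20 in Treg-like cells, and -0.92 for Klrk1 in memory-like CD8 cells. The counts past 2-fold were then 0 higher and 2 lower over all T cells, 2 higher in the CD8 class, 0 higher and 1 lower in memory-like CD8 cells, and 3 higher and 1 lower in memory-like CD4 cells. The share of all genes past 2-fold was computed for the main setting only, so the counts of this paragraph have none beside them. Clustering with the Klr genes gave -0.63 for Klrk1 and -0.11 for Klrc1 in memory-like CD8 cells, a ratio of Klrc1 shares of 0.533, 0 genes past 2-fold higher there and 0 lower in the CD8 class. In cells with Y-linked UMIs the Klrg1 ratio was 2.91 in the CD8 class, 0.55 in effector-like and 1.81 in Treg-like cells, with 2 genes higher over all T cells, 0 lower in the CD8 class and 2 higher in memory-like CD4 cells. In cells with Xist it was 1.18 in Treg-like cells, and 2 genes were higher in memory-like CD8 cells. Leiden resolution 0.5 gave 0 lower in the CD8 class and 3 higher in memory-like CD4 cells. Resolution 2 gave 0 lower in the CD8 class, 2 higher in memory-like CD8 and 1 lower in memory-like CD4 cells. Over all T cells 2 genes were higher with each cell weighing the same and among cells with Cd3 and without Ncr1, and a floor of 1 UMI gave 1 lower in memory-like CD8 cells. Few cells limit the NKT-like (10 CKO cells) and effector-like (47 control cells) values.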
